A study of Mus musculus with 16 samples.

Results

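Heat shock and cold-inducible genes were followed in the cortex of mice given lipopolysaccharide (LPS), a bacterial cell wall component that sets off inflammation, in the morning or in the evening. The set holds 10 genes, chosen by symbol as temperature-responsive chaperones together with the cold-inducible *Cirbp* and *Rbm3*, out of 55487 gene identifiers measured. All 10 symbols were found, and all 10 passed the filter on low values, which asks for 1 CPM or more in 3 or more of the 16 samples. CPM is the number of reads on a gene for every 1000000 reads on all genes of a sample.

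The mice were wild-type C57Bl6 males aged 2 months. Each received 2 intraperitoneal injections on consecutive days, of LPS at 2 mg/kg or of phosphate-buffered saline (PBS), either at ZT1, in the early light phase, or at ZT13, in the early dark phase, and cortex was taken on the third day at the same time of day. There were 3 PBS and 5 LPS mice at ZT1, and 3 PBS and 5 LPS mice at ZT13. Total RNA depleted of ribosomal RNA was sequenced. The label of ZT13 PBS replicate 1 ends unlike those of the other 15 samples, and the sources used here do not say why. Treatment was read from the sample titles, which a separate treatment field contradicts for 12 of the 16 samples. *Gfap*, an intermediate filament gene of astrocytes, ranged from 111 to 123 CPM over the 6 PBS mice and from 572 to 1134 CPM over the 10 LPS mice, and *Lcn2*, an acute-phase gene, lay at 0.0421 to 0.197 CPM and at 107 to 418 CPM. The clock output gene *Dbp* was at 37.3 to 55.5 CPM in ZT1 PBS mice and at 91.5 to 111 CPM in ZT13 PBS mice, and *Arntl*, which encodes BMAL1, was at 38.6 to 39.4 CPM and at 24 to 27.3 CPM. The clock genes *Per2* (52 to 67.5 and 71.5 to 102 CPM) and *Nr1d1* (104 to 118 and 130 to 152 CPM) had higher ranges in the ZT13 PBS mice. Neither of these 2 differences had a limma adjusted p under 0.05 (0.19 and 0.087).

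Heat shock proteins are chaperones that bind unfolded proteins, and many of their genes are switched on by heat shock factor 1 when body temperature rises or proteins misfold. *Cirbp* and *Rbm3* encode RNA-binding proteins whose transcripts increase on mild cooling, and in many tissues both vary over the day as body temperature cycles. Body temperature was not analysed here.

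Levels between genes were compared per length, as CPM per kb of annotated exon averaged over all 16 mice. *Hspa8*, the constitutive cytosolic HSP70, stood highest at 296 CPM per kb. *Hsp90aa1*, the stress-inducible cytosolic HSP90, followed at 118 CPM per kb, then *Hspa5*, the HSP70 of the endoplasmic reticulum (ER), at 34.9 and *Hsph1*, an HSP110 that exchanges nucleotide on HSP70, at 22.6 CPM per kb. *Cirbp* at 16.4, *Dnajb1*, a J-domain partner of HSP70, at 16 and *Rbm3* at 15.2 CPM per kb were close to each other. *Hspe1*, the mitochondrial co-chaperonin, was at 11.2 CPM per kb, and the heat-inducible HSP70 genes *Hspa1b* and *Hspa1a* were at 10.1 and 7.73 CPM per kb. The order of these last 6 genes changed between groups: in ZT1 PBS mice *Hspa1b* was at 13, *Hspe1* at 11.5, *Cirbp* at 10.5, *Hspa1a* at 8.9 and *Rbm3* at 8.46 CPM per kb.

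**Figure D1:**
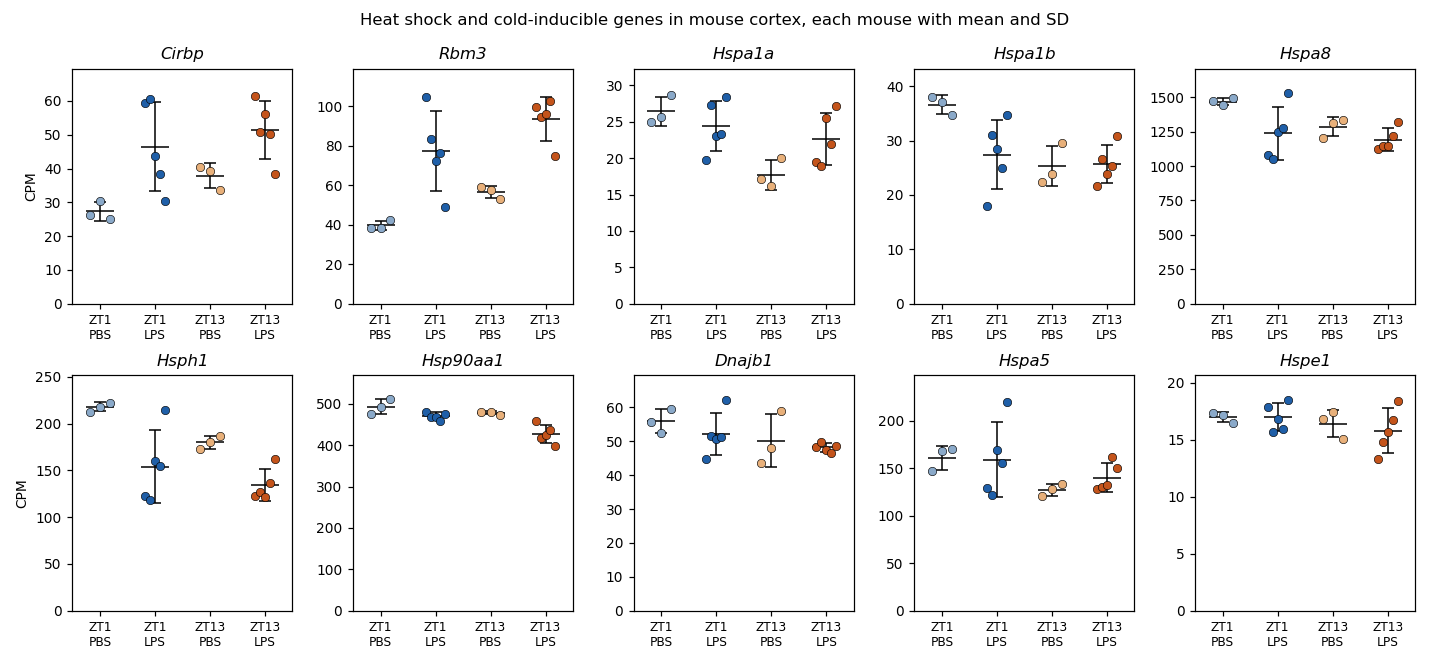
Level of each of the 10 genes in CPM (y axis, from 0) in each mouse of the 4 groups (x axis); points are mice, and the line and bar give mean and SD (n = 3 for PBS, n = 5 for LPS). Rbm3 in ZT13 LPS mice lies at 74.8 to 103 CPM, above the 53 to 59.2 CPM of ZT13 PBS mice.

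*Rbm3* separated the treatments at both times. In ZT1 PBS mice it was at 38.3, 38.6 and 42.4 CPM, and in ZT1 LPS mice at 105, 83.5, 72.4, 76.5 and 48.9 CPM. In ZT13 PBS mice it was at 59.2, 57.5 and 53 CPM, and in ZT13 LPS mice at 99.6, 94.5, 96.3, 103 and 74.8 CPM. Every LPS mouse was above every PBS mouse of its own time. The log2 change of CPM + 0.5 after LPS was 0.91 (SE 0.18, limma adjusted p = 0.0056) at ZT1 and 0.72 (SE 0.08, limma adjusted p = 2.1e-05) at ZT13. The ZT13 call held in all 17 alternatives, and the ZT1 call in 16 of 17, with an adjusted p of 0.083 when every gene above 0 CPM was tested and 9.2e-05 as the lowest. *Rbm3* lies on chromosome X of GRCm38 from 8138975 to 8145880, minus strand, and overlaps the antisense gene *Rbm3os*, which was at 0.258 to 0.859 CPM; whether reads were counted by strand is not given in the sources used here. The pseudogene *Rbm3-ps* was at 0 to 0.616 CPM.

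*Cirbp*, on chromosome 10 from 80165985 to 80172786, was at 26.4, 30.5 and 25 CPM in ZT1 PBS mice and at 59.5, 60.5, 43.6, 38.5 and 30.5 CPM in ZT1 LPS mice. At ZT13 it was at 40.6, 39.4 and 33.6 CPM after PBS and at 61.4, 50.8, 56.1, 50.3 and 38.3 CPM after LPS. At each time 4 of the 5 LPS mice were above every PBS mouse, and replicate 5 fell within the PBS range. The log2 change was 0.72 (SE 0.19, limma adjusted p = 0.026) at ZT1 and 0.42 (SE 0.12, limma adjusted p = 0.014) at ZT13. The ZT1 call was lost without ZT1 PBS replicate 1 (log2 change 0.69, limma adjusted p = 0.099), replicate 2 (0.80, adjusted p = 0.052) or replicate 3 (0.66, adjusted p = 0.11), and the ZT13 call without ZT13 PBS replicate 3 (0.34, adjusted p = 0.085). The call held in 12 of 17 alternatives at ZT1 and in 13 of 17 at ZT13. Over all of them the adjusted p ran from 0.00026 to 0.18 at ZT1 and from 7e-05 to 0.15 at ZT13, and the direction stayed the same.

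Among the cytosolic chaperones, *Hsph1* moved the other way. *Hsph1*, on chromosome 5 from 149614287 to 149636376, was at 212, 218 and 222 CPM in ZT1 PBS mice and at 123, 118, 160, 155 and 214 CPM in ZT1 LPS mice. In ZT13 PBS mice it was at 173, 180 and 187 CPM, and in ZT13 LPS mice at 123, 127, 121, 136 and 162 CPM. All 5 LPS mice at ZT13 were below every PBS mouse, while at ZT1 replicate 5 lay within the PBS range. The log2 change was -0.53 (SE 0.15, limma adjusted p = 0.037) at ZT1 and -0.44 (SE 0.08, limma adjusted p = 0.00071) at ZT13. The ZT13 call held in all 17 alternatives. The ZT1 call was lost in 8 of 17 alternatives, with adjusted p from 0.00075 to 0.21, among them the fits without ZT1 PBS replicate 1 (log2 change -0.55, adjusted p = 0.1), replicate 2 (-0.53, 0.11) or replicate 3 (-0.52, 0.12) and without ZT1 LPS replicate 1 (-0.46, 0.071), replicate 3 (-0.55, 0.055) or replicate 4 (-0.54, 0.058).

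*Hspa8*, which folds new proteins and uncoats clathrin vesicles, was at 1469, 1441 and 1494 CPM in ZT1 PBS mice and at 1081, 1053, 1249, 1276 and 1528 CPM in ZT1 LPS mice. In ZT13 PBS mice it was at 1206, 1311 and 1336 CPM, and in ZT13 LPS mice at 1122, 1147, 1147, 1216 and 1323 CPM. The groups overlapped at both times. The log2 change was -0.26 (SE 0.10, limma adjusted p = 0.096) at ZT1 and -0.11 (SE 0.05, limma adjusted p = 0.14) at ZT13. Neither passed the threshold in the main fit. The ZT1 change was called in 4 of 17 alternatives, with limma adjusted p from 0.0024 to 0.34. The lowest came from a block for replicate number, in which LPS replicates 4 and 5 do not enter the estimate. Without ZT1 LPS replicate 5 it was -0.34 (limma adjusted p = 0.0048). The ZT13 change was called in 3 of 17 alternatives, with limma adjusted p from 0.013 to 0.4. Without ZT13 LPS replicate 5 it was -0.15 (limma adjusted p = 0.013).

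*Hsp90aa1* varied little between mice. It was at 475, 493 and 511 CPM in ZT1 PBS mice and at 481, 469, 468, 458 and 476 CPM in ZT1 LPS mice. In ZT13 PBS mice it was at 480, 480 and 473 CPM, and in ZT13 LPS mice at 458, 418, 424, 437 and 397 CPM. At ZT13 every LPS mouse was below every PBS mouse, with a log2 change of -0.16 (SE 0.04, limma adjusted p = 0.0079), called in 15 of 17 alternatives with adjusted p from 0.00049 to 0.062. At ZT1 the log2 change was -0.07 (SE 0.03, limma adjusted p = 0.22).

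The heat-inducible HSP70 genes *Hspa1a* and *Hspa1b* lie on chromosome 17, from 34969190 to 34972156 and from 34956436 to 34959238. They are near copies: 58.8% of the 50-base words of the *Hspa1a* transcript also occur in *Hspa1b*, so that reads may have been split or lost between them and each value is uncertain. *Hspa1a* was at 24.9, 25.6 and 28.7 CPM in ZT1 PBS mice, at 19.8, 27.3, 23, 23.3 and 28.4 CPM in ZT1 LPS mice, at 17.1, 16.1 and 20 CPM in ZT13 PBS mice and at 19.5, 18.9, 25.5, 21.9 and 27.1 CPM in ZT13 LPS mice. *Hspa1b* was at 38, 37 and 34.7 CPM, at 17.9, 31.1, 28.4, 25 and 34.6 CPM, at 22.4, 23.9 and 29.5 CPM and at 21.7, 26.6, 23.9, 25.3 and 30.9 CPM in the same order of groups. Both were highest in ZT1 PBS mice. Summed over both genes, the level at ZT1 was 63 ± 0.377 CPM after PBS (SD, n = 3) against 51.8 ± 9.76 CPM after LPS (SD, n = 5). At ZT13 the sums were 43 ± 5.64 CPM after PBS (SD, n = 3) against 48.2 ± 6.23 CPM after LPS (SD, n = 5). After LPS at ZT13 *Hspa1a* had a log2 change of 0.33 (SE 0.11, limma adjusted p = 0.041), with groups that overlapped; at ZT1 it had -0.12 (SE 0.11, limma adjusted p = 0.49). The call at ZT13 was lost in 8 of 17 alternatives (adjusted p from 0.018 to 0.22), among them median-of-ratios scaling (log2 change 0.28, adjusted p = 0.092) and the fits without ZT13 PBS replicate 1 (0.31, 0.12) or replicate 2 (0.27, 0.17) and without ZT13 LPS replicate 3 (0.29, 0.086), replicate 4 (0.34, 0.062) or replicate 5 (0.27, 0.065). *Hspa1b* had a log2 change of -0.44 (SE 0.16, limma adjusted p = 0.093) at ZT1, where the groups did not overlap, and 0.02 (SE 0.11, limma adjusted p = 0.9) at ZT13, the latter -0.03 with median-of-ratios scaling. The ZT1 change of *Hspa1b* was called in 4 of 17 alternatives, with limma adjusted p from 0.027 to 0.33. Without ZT1 LPS replicate 5 it was -0.53 (limma adjusted p = 0.03).

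*Dnajb1*, on chromosome 8 from 83608193 to 83612653, was at 43.5 to 59.6 CPM over the PBS mice and at 44.8 to 62.1 CPM over the LPS mice. *Hspe1*, on chromosome 1 from 55088132 to 55091307, was at 15.1 to 17.4 CPM and at 13.3 to 18.5 CPM. Neither gene passed the threshold in any of the 5 comparisons. *Hspe1* shares exonic bases on the opposite strand with *Hspd1*, its chaperonin partner, at 59.4 to 71.2 CPM, so its level is uncertain; its pseudogenes reached at most 0.786 CPM.

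*Hspa5*, the ER chaperone that holds the sensors of the unfolded protein response inactive, lies on chromosome 2 from 34771970 to 34777547. It was at 147, 168 and 170 CPM in ZT1 PBS mice and at 129, 122, 169, 155 and 220 CPM in ZT1 LPS mice. In ZT13 PBS mice it was at 121, 128 and 133 CPM, and in ZT13 LPS mice at 128, 130, 132, 162 and 150 CPM. The ZT1 LPS mice spread on both sides of the PBS mice. Its log2 change after LPS was -0.05 (SE 0.15, 95% interval -0.39 to 0.29, limma adjusted p = 0.87) at ZT1 and 0.14 (SE 0.07, limma adjusted p = 0.18) at ZT13.

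Counted together, 3 of the 10 members were called at ZT1 after LPS, 2 higher and 1 lower, where 16.2% of the 18859 genes tested were called, 11.1% higher and 5.15% lower. At ZT13 the count was 5 of 10, 3 higher and 2 lower, beside 28.6% of all genes tested, 19.2% higher and 9.4% lower. The median log2 change of the members was -0.09 at ZT1 and -0.01 at ZT13, beside 0.04 and 0.05 over all genes tested. Among all genes called, 2089 were higher and 972 lower at ZT1, and 3629 and 1772 at ZT13; with median-of-ratios scaling the splits were 1656 and 1390, and 2842 and 2831. Without ZT1 PBS replicate 1, 2 or 3 a single member was called at ZT1, beside 1767, 1870 and 1770 genes in all. Without ZT1 LPS replicate 5 the count was 5, beside 3758 genes. The main fit called 3061 genes at ZT1.

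**Figure D2:**
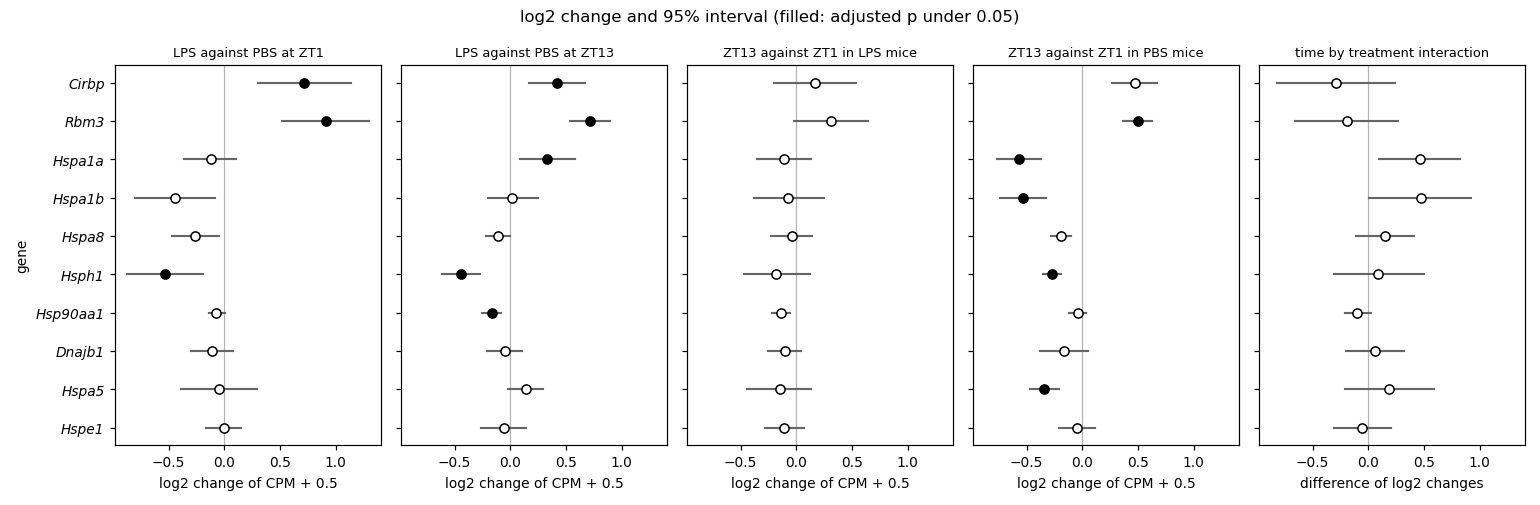
Estimated log2 change (x axis) of each gene (y axis) in 4 comparisons and the difference of log2 changes in the interaction, with 95% intervals from limma; filled points have an adjusted p under 0.05. Rbm3 has 0.91 at ZT1 and 0.72 at ZT13 after LPS, and Hsph1 has -0.53 and -0.44.

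In mice given PBS, several members differed in range between the times of day. *Rbm3* and *Cirbp* were higher at ZT13 in all 3 mice than in any ZT1 mouse, and *Hsph1*, *Hspa1a*, *Hspa1b*, *Hspa8* and *Hspa5* were lower in all 3. The share of all genes that separated in this way is not given here. The same 7 of 10 members had an unadjusted limma p under 0.05, beside 2543 of the 18859 genes. By limma 5 of 10 members were called, 1 higher and 4 lower, beside 0.52% of all genes tested, 0.302% higher and 0.217% lower. *Rbm3* had a log2 change of 0.50 (SE 0.06, limma adjusted p = 0.0099), *Hspa1a* -0.57 (SE 0.09, adjusted p = 0.034), *Hspa1b* -0.53 (SE 0.09, adjusted p = 0.045), *Hsph1* -0.27 (SE 0.04, adjusted p = 0.02) and *Hspa5* -0.34 (SE 0.06, adjusted p = 0.045). *Cirbp* had 0.47 (SE 0.09, limma adjusted p = 0.063) and *Hspa8* -0.19 (SE 0.04, limma adjusted p = 0.08), and neither passed the threshold. The calls rest on 3 mice against 3. None of the 5 was called in a single fit of all 16 samples (43 genes called in all) or without an intensity trend (3 genes). The count was 1 without ZT1 PBS replicate 1 (25 genes), 0 without replicate 2 (12 genes) and 1 without replicate 3 (23 genes). It was 2 without ZT13 PBS replicate 1 (53 genes) and 0 without ZT13 PBS replicate 2 (14 genes). With all 6 PBS mice 98 genes were called. Without ZT13 PBS replicate 3 the call of *Hspa5* was lost (log2 change -0.38, limma adjusted p = 0.06) and *Cirbp* was called (0.55, 0.044). Over all 15 alternatives the adjusted p ran from 0.0055 to 0.32 for *Rbm3*, 0.021 to 0.27 for *Hspa1a*, 0.0083 to 0.33 for *Hspa1b*, 0.012 to 0.59 for *Hsph1*, 0.022 to 0.45 for *Hspa5* and 0.041 to 0.44 for *Cirbp*. The direction of all 6 stayed the same.

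Between ZT13 and ZT1 in LPS mice no member was called by limma, beside 0.0212% of all genes tested. That share depends on the fit: sample quality weights gave 225 genes, and leaving out 1 mouse gave 0 to 345. No member was called in these fits. An unadjusted p under 0.05 was found for 1 of 10, beside 1998 of the 18859 genes. That member was *Hsp90aa1*, with a log2 change of -0.14 (SE 0.04, limma adjusted p = 0.17). *Rbm3* had a log2 change of 0.31 (SE 0.15, 95% interval -0.02 to 0.64), *Cirbp* 0.17 (95% interval -0.20 to 0.54) and *Hsph1* -0.18 (95% interval -0.47 to 0.12). The interaction of time and treatment, which asks whether the LPS effect differs between ZT13 and ZT1, called no member by limma, beside 0.159% of all genes tested. An unadjusted p under 0.05 was found for 2 of 10, beside 1745 of the 18859 genes. These were the near copies *Hspa1a*, with a difference of log2 changes of 0.46 (SE 0.17, limma adjusted p = 0.39), and *Hspa1b*, with 0.47 (SE 0.22, limma adjusted p = 0.53). For *Rbm3* the difference was -0.19 (95% interval -0.66 to 0.27) and for *Hsph1* 0.09 (95% interval -0.31 to 0.50). The comparisons share mice, so they are not independent of each other.

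Within the LPS groups the members varied from mouse to mouse. Replicate 5 of the ZT1 LPS group had the lowest *Cirbp* (30.5 CPM) and *Rbm3* (48.9 CPM) of the 10 LPS mice, and the highest *Hsph1* (214 CPM), *Hspa8* (1528 CPM), *Hspa5* (220 CPM), *Hspa1a* (28.4 CPM), *Hspa1b* (34.6 CPM) and *Dnajb1* (62.1 CPM). Its *Lcn2* level, 107 CPM, was the lowest of the 10, and its *Gfap* level, 665 CPM, the second lowest; the lowest *Gfap*, 572 CPM, was in ZT1 LPS replicate 2, which had the second highest *Cirbp* (60.5 CPM) and the lowest *Hsph1* (118 CPM) and *Hspa8* (1053 CPM). Replicate 5 of the ZT13 LPS group came next to replicate 5 of the ZT1 LPS group in *Cirbp* (38.3 CPM), *Hsph1* (162 CPM), *Hspa8* (1323 CPM) and *Hspe1*, but not in *Rbm3*, *Hspa5*, *Hspa1a*, *Hspa1b* or *Dnajb1*. It had the lowest *Hsp90aa1* of the 10 (397 CPM), where the other had the second highest (476 CPM). The residuals of these 2 samples over all genes tested had a correlation of 0.33. Both mice were singled out after their values were seen. At the other end, the 3 LPS mice with *Cirbp* at 59.5 to 61.4 CPM had *Hsph1* at 118 to 123 CPM and *Hspa8* at 1053 to 1122 CPM.

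**Figure D3:**
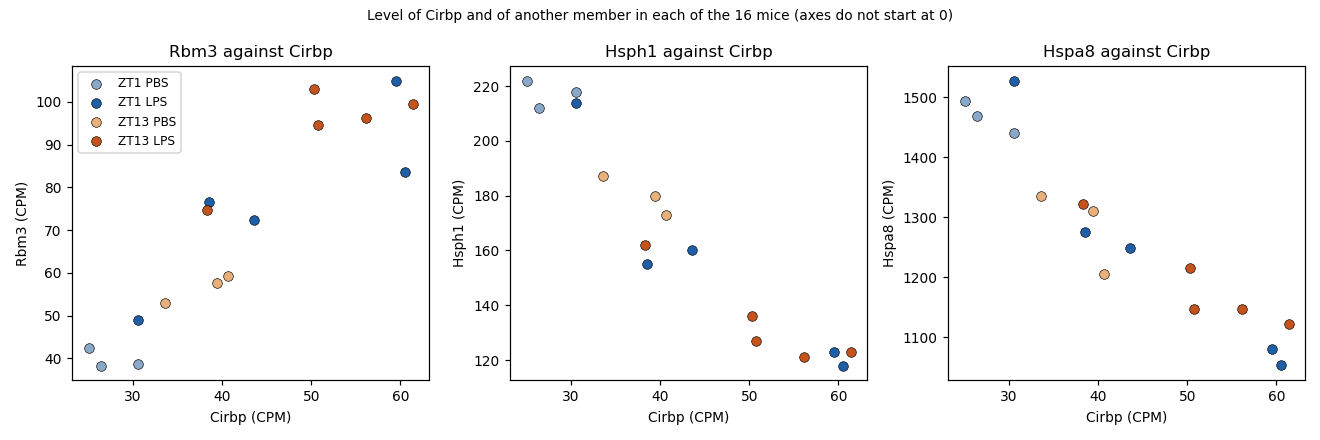
Level of Cirbp (x axis, CPM) against Rbm3, Hsph1 and Hspa8 (y axes, CPM) in each of the 16 mice, coloured by group; axes do not start at 0. The LPS mouse with the lowest Cirbp, at 30.5 CPM, has the highest Hsph1 of the LPS mice, at 214 CPM.

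Genes with the profile most like a member's were ranked by the root mean square difference of centred log2 values over the 16 samples. For *Cirbp* these were *Zfp46* (0.124), *Acr*, *Gm15706*, *Ezr* and *Fam214a* (0.164). For *Hsph1* they were *Gm1043* (0.088), *Synj2*, *Dnah5*, *Mapk11* and *Fam163a* (0.117). For *Hspa5* they were *Pdia6* (0.084), *Xbp1*, *Calr*, *Zbtb40* and *Manf* (0.118). *Pdia6*, *Calr* and *Manf* encode proteins of the ER, and *Xbp1* a transcription factor of the unfolded protein response. The closest other member was *Rbm3* for *Cirbp* (rank 15, 0.192) and *Hspa8* for *Hsph1* (rank 129, 0.175) and for *Hspa5* (rank 53, 0.158). The median over all genes tested was 0.421, 0.373 and 0.277.

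Other chaperone and stress genes were described from lists. From the HSP70 relatives to the cold shock domain genes, with each gene counted once, 94 genes were tested. Of these, 20 were called after LPS at ZT1 (21.3%), beside 16.2% of all genes tested. At ZT13 the count was 34 (36.2%), beside 28.6%. Of the 7 HSP70 and HSP110 relatives, 2 were higher and 1 lower after LPS at ZT1, and 2 higher and 3 lower at ZT13. *Hspa12b*, an HSP70 relative of endothelial cells, had log2 changes of 0.76 (SE 0.14) and 1.36 (SE 0.07), and *Hspa4*, an HSP110 like *Hsph1*, was lower at ZT13 by -0.32 (SE 0.03). Of the 3 HSP90 relatives none was called, with medians of 0.02 at both times, and of the 4 genes of heat shock factors and their binding protein (*Hsbp1*) none was called, with medians of 0.04 and 0.02. Of 13 J-domain co-chaperones, 1 was lower at ZT1 (*Dnajb2*, -0.24), and 1 was higher and 3 lower at ZT13. Of 9 mitochondrial chaperones and proteases none was called at ZT1 and 1 was lower at ZT13, *Hspd1* with -0.16 (SE 0.04).

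Small heat shock proteins, which hold unfolding proteins without ATP, were described apart. Of 6 tested, out of 9 listed, 3 were higher and 1 lower at each time. *Hspb1* rose from 4.54 to 10.1 CPM at ZT1 and from 3.73 to 12.9 CPM at ZT13, with log2 changes of 1.03 (SE 0.21) and 1.67 (SE 0.13). *Hspb6* had 1.31 (SE 0.10) and 1.62 (SE 0.10), and *Cryab*, abundant in oligodendrocytes, fell by 0.48 at both times on the log2 scale. Among 19 co-chaperones of HSP70 and HSP90, 2 were higher and 3 lower at ZT1, and 2 higher and 4 lower at ZT13. The higher genes were *Fkbp5*, a glucocorticoid-responsive gene, with 1.77 (SE 0.19) and 1.30 (SE 0.11), and *Bag3*, with 0.45 (SE 0.09) and 0.90 (SE 0.08). *Fkbp5* was also higher at ZT13 than at ZT1 in PBS mice, by 0.91 (SE 0.11, limma adjusted p = 0.012), the one gene of the chaperone lists called there.

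Of 23 ER chaperone and unfolded protein response genes tested, 4 were higher and 1 lower at ZT1, and 8 higher and 1 lower at ZT13, with medians of 0.08 and 0.14. *Sdf2l1* (0.83, SE 0.13) and *Pdia4* (0.53, SE 0.07) led at ZT13, and *Atf4* was lower at both times, with -0.23 and -0.34. Of the 8 CCT chaperonin subunits, 1 was higher at ZT1, and 1 higher and 1 lower at ZT13. Of 5 cold shock domain genes tested, 1 was higher at ZT1 and 3 at ZT13, with *Carhsp1* at 0.49 (SE 0.12) and 0.29 (SE 0.07). Of 11 immediate early genes tested, 9 were lower at ZT1 and 7 at ZT13, with medians of -0.54 and -0.69. The 12 listed, with *Egr1* the most abundant, summed to 1665 to 2130 CPM in ZT1 PBS and 1020 to 1651 CPM in ZT1 LPS mice, and to 912, 1769 and 2044 CPM in ZT13 PBS and 675 to 1119 CPM in ZT13 LPS mice; the 912 CPM of ZT13 PBS replicate 1, the sample with the unlike label, lies within the LPS range.

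Markers of cell types also moved with LPS. The most abundant gene of each list is the one highest on average over all 16 mice. The summed level of 8 neuron markers, with *Syt1* the most abundant and 3 others close to it, was 6370 to 6540 CPM in ZT1 PBS, 5812 to 6150 in ZT1 LPS, 6442 to 6708 in ZT13 PBS and 5727 to 6038 CPM in ZT13 LPS mice; 2 of 8 were lower at ZT1 and 6 of 8 at ZT13. The 8 endothelial markers, with *Flt1* the most abundant, though *Cldn5* was above it in both LPS groups, summed to 171 to 176, 188 to 274, 117 to 140 and 262 to 292 CPM in the same order, with 5 higher and 1 lower at ZT1 and 7 higher at ZT13. Between times in PBS mice 3 of the 8 were lower at ZT13, *Cldn5* by -1.10 (SE 0.12), *Kdr* by -1.03 (SE 0.10) and *Flt1* by -0.49 (SE 0.06), and no marker of the other lists was called there. Astrocyte markers, with *Slc1a2* the most abundant, were higher in 4 of 6 at each time, with 1 lower at ZT13, and summed to 4566 to 4723, 5015 to 5488, 4670 to 4955 and 5302 to 5814 CPM. The rise of this sum was mostly *Gfap*, with means from 116 to 731 CPM at ZT1 and from 118 to 1013 CPM at ZT13. Mean *Slc1a2* went from 3963 to 3868 CPM and from 4119 to 3758 CPM. Microglia markers, with *Csf1r* the most abundant, were higher in 5 of 7 and lower in 2 of 7 at each time, and summed to 181 to 198, 195 to 317, 175 to 191 and 233 to 272 CPM. Oligodendrocyte markers, with *Mbp* the most abundant, summed to 2418 to 2827, 2264 to 2722, 2781 to 3024 and 2394 to 2558 CPM, with 1 of 6 higher at each time and 2 lower at ZT1 and 4 at ZT13. Neutrophil markers, with *S100a9* the most abundant in LPS mice, summed to 0.842 to 1.48, 8.56 to 42.8, 0.569 to 1.25 and 28.1 to 74.7 CPM. Of 4 tested, 3 were higher at ZT1 and 4 at ZT13. All 4 had means of 0.298 CPM or less in both PBS groups, so they passed the filter only through LPS mice. The counts of higher genes therefore follow in part from the filter. *Ly6g* and *Elane*, which did not pass the filter, were at 0 in both PBS groups. Their means in ZT1 and ZT13 LPS mice were 0.0551 and 0.0648 CPM, and 0.00687 and 0.0335 CPM. *Mpo*, also not tested, had lower means after LPS, from 0.437 to 0.094 CPM at ZT1 and from 0.383 to 0.149 CPM at ZT13. None of the 5 erythrocyte markers was called. Of these *Alas2* was the most abundant, though not in either LPS group, and they summed to 10.7 to 16.8, 6.16 to 35.8, 9.39 to 19.9 and 6.6 to 25 CPM. The part of cell type shares in the members' changes was not tested, and in bulk tissue fewer cells of a type and less RNA per cell cannot be told apart.

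Promoters, 250 bases before to 50 after the start, were found for 7 of the 10 members in the RefSeq table of GRCm38.p6. They were searched on both strands for pairs of heat shock half-sites (GAANNTTC or TTCNNGAA), for the ER stress element (CCAAT and CCACG separated by 9 bases) and for the mild-cold response element TCCCCGCC, which 15.1%, 0.119% and 5.38% of all 32851 promoters hold. The 4 promoters below are shown because their genes belong to the separate classes described above, with matches in capitals. The *Hspa1b* promoter differs from that of *Hspa1a* at 4 of 300 positions. A match is a description of letters, not of a bound site.
Cirbp promoter, chr10:80167589-80167888, plus strand: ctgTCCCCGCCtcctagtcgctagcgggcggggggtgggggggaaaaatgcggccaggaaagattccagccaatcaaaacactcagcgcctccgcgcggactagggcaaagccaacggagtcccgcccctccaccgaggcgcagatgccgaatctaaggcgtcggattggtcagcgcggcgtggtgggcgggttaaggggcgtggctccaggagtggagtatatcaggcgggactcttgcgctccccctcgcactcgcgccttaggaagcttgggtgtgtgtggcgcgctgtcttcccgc
Hsph1 promoter, chr5:149636287-149636586, minus strand: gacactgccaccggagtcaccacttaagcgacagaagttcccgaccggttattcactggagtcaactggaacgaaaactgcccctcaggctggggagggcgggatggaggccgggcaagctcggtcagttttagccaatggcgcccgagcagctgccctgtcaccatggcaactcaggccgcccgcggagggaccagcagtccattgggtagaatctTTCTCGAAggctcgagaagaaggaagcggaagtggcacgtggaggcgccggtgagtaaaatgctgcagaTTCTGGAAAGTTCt
Hspa1a promoter, chr17:34972107-34972406, minus strand: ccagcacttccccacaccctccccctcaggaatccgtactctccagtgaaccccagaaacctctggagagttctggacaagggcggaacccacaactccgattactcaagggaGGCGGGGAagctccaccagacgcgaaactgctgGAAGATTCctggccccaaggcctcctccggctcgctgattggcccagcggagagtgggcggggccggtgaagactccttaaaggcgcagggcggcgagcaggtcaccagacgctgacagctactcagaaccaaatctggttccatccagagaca
Hspa5 promoter, chr2:34771840-34772139, plus strand: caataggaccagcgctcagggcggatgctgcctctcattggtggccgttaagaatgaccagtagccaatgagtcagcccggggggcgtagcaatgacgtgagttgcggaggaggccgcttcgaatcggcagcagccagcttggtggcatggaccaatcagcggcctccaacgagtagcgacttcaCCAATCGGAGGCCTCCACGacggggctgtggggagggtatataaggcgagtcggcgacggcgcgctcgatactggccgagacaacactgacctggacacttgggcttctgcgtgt
The *Cirbp* window shown holds the mild-cold element once, and a second *Cirbp* window in the table holds none of the motifs. The *Hsph1* window holds 3 heat shock pairs, of which 2 overlap, the *Hspa1a* window holds 1 heat shock pair and 1 mild-cold element, and the *Hspa5* window holds 1 ER stress element. Of all promoters, 1.96% hold at least 2 heat shock pairs. Of the windows not shown, that of *Hspe1* holds 3 heat shock pairs, and the 2 of *Dnajb1* hold 1 mild-cold element and no heat shock pair.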

How the data were processed

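Cortex RNA from 16 mice was analysed. The authors deposited CPM for each gene and sample; the submitters' processing notes list bcl2fastq, DRAGEN 4.0.3-8 and GRCm38, and the counting settings are not given in the sources used here. Of 55774 lines, 287 repeated a gene with identical values and were dropped. Steps between low values put the depth at 20251840 to 29112758 reads on genes, but only 80.9% to 82.5% of values up to 20 reads were whole within 0.01 read, so counts were not recovered. Genes at 1 CPM or more in at least 3 samples were tested, 18859 in all, on log2(CPM + 0.5) with limma 3.58.1 in R 4.3.3 and an intensity trend. A call means a p under 0.05 after Benjamini-Hochberg adjustment across the tested genes. Fold changes on this scale understate those of low genes. Pairwise comparisons used their 2 groups, and the interaction used all 16 samples. The fits were tested on simulated data. Tables used numpy 2.4.6 and pandas 2.3.3 under Python 3.11.15, plots used matplotlib 3.10.9, and gene positions and exon lengths came from GENCODE M21.

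The genes named are all 10 members, 6 genes that check the labels, up to 2 called genes with the largest change in each direction of each list and comparison, the 5 genes with the profile most like *Cirbp*, *Hsph1* and *Hspa5*, list genes called for the interaction, the most abundant gene of a marker or immediate early list, neutrophil markers at 0 in PBS mice, a gene listed with the heat shock factors, and copies or overlapping genes that could share reads. *Mpo* is named as well, as a neutrophil marker with lower means after LPS at both times. Members and lists were chosen with earlier results of these data known. Where a symbol had several identifiers (1 of 169), the most abundant was used. Among the listed genes and copies, 2 that were tested or measured were later taken out of the lists and their counts for a reason other than their values and are not reported here. The alternatives were pseudocounts of 0.1 and 1, testing all genes above 0 CPM in a sample or those at 5 CPM or more in at least 3 samples, no intensity trend, median-of-ratios scaling, weights for sample quality, all 16 samples in a single fit, a block for replicate number, and fits that each left out 1 mouse.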

Additional observations from a re-analysis of the deposited data

Results flagged for a closer look

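No member had an interaction of time and treatment past the threshold or an LPS mouse far from the others of its group. Among the other genes named, a test for 1 mouse far from the rest of its group of 5 was run on 150 groups of values and picked out 4, where chance gives about 1 in 20. These were *Dnajb2* at 51.3 CPM, *Fkbp5* at 134 CPM and *Tmem119* at 14.8 CPM in ZT1 LPS replicate 2, and *Aqp4* at 110 CPM in ZT1 LPS replicate 1. The LPS effect differed between ZT13 and ZT1 by limma's interaction for *Dbp*, with a difference of log2 changes of -0.91, and for 5 of the 8 endothelial markers, *Pecam1* (0.78), *Cdh5* (0.67), *Cldn5* (1.36), *Flt1* (0.56) and *Kdr* (1.39). For *Dbp*, *Arntl* and *Flt1* every LPS mouse lay on one side of the PBS mean at ZT1 and on the other side at ZT13, and the LPS differences in CPM at the 2 times differed by -44.71, 10.01 and 20.37 CPM; these differences were not tested. For *Arntl* the interaction did not pass the threshold (limma adjusted p = 0.1).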

How the results depend on the processing

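Of 920 refitted log2 changes of single members, 820 kept their direction and their side of the threshold, 68 lost a call, 15 gained one and 17 changed sign. All 17 sign changes were in changes that were not called, among them *Hspa1b* after LPS at ZT13, at -0.03 with median-of-ratios scaling and -0.06 with the replicate block. Without 1 mouse the log2 changes that switched sign ran from -0.06 to 0.14 for *Hspa1b* and from -0.14 to 0.07 for *Dnajb1* after LPS at ZT13, from -0.04 to 0.02 for *Hspe1* and from -0.18 to 0.04 for *Hspa5* after LPS at ZT1, from -0.21 to 0.02 for *Hspa1b* and from -0.10 to 0.03 for *Hspa8* between times in LPS mice, from -0.09 to 0.01 for *Hspe1* between times in PBS mice, and in the interaction from -0.04 to 0.18 for *Dnajb1* and from -0.11 to 0.00 for *Hspe1*. Testing all genes above 0 CPM left 0 members called at ZT1 (1605 genes in all), 2 at ZT13 (4332 genes) and 0 between times in PBS mice (65 genes). It gave 1 gene between times in LPS mice and 12 for the interaction. Without an intensity trend the members called were 1 at ZT1 (2168 genes), 2 at ZT13 (4629 genes) and 0 in PBS mice (3 genes). That fit gave 0 genes between times in LPS mice and 11 for the interaction. In a single fit of all 16 samples 5 members were called at ZT1 (4048 genes) and 0 in PBS mice (43 genes), with 122 genes between times in LPS mice. Sample quality weights gave 5 members at ZT1 (4097 genes), 225 genes between times in LPS mice and 124 for the interaction. In PBS mice a pseudocount of 0.1 gave 3 members (92 genes), and the 5 CPM filter gave 6 members (158 genes). With replicate number as a block, 5 members were called at ZT1 (2637 genes) and 5 in PBS mice (57 genes). No PBS group holds a replicate 4 or 5, so the LPS against PBS changes with this block rest only on replicates 1 to 3. Same-numbered samples had residual correlations of -0.2 to 0.33. The sources used here do not say whether the numbers pair the mice, and these correlations cannot decide it. Leaving out 1 mouse gave 1 to 5 members and 1767 to 3758 genes after LPS at ZT1, 4 to 5 members and 4329 to 5547 genes at ZT13, 0 to 5 members and 12 to 87 genes in PBS mice, 0 members and 0 to 345 genes in LPS mice, and 0 members and 7 to 104 genes for the interaction. The cause of these shifts was not tested. Fits without a mouse held fewer mice, and the fit of all genes above 0 CPM held more genes. With 3 PBS mice at each time, the spread of a group rests on few animals, and *Hspa1a*, *Hspa1b* and *Hspe1* share sequence or exons with other genes.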
